A study of Mus musculus with 6 samples.

Results

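The genes described here encode the proteins of the cytoplasmic ribosome. They were taken from the deposited expression table by gene symbol alone: Rpl or Rps followed by a number and an optional letter or copy suffix, Rplp0, Rplp1, Rplp2 and Rpsa. The rule found 86 genes among 26332 with values, 53 of the large subunit and 33 of the small subunit. It does not reach Fau, whose ribosomal protein is made as a fusion and whose symbol is different, and it takes in Rps4l, Rpl6l and Rpl32l, which are pseudogenes in the RefSeq or GENCODE annotation. The rule itself uses no measured value, but it was set with earlier results of these data known.

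Nuclear RNA was sequenced from sorted atrial cardiomyocyte nuclei of 3 control mice and 3 Prrx1(R1A)-/- mice, all 8 to 12 weeks old. Both atria of an animal were pooled, and each library is 1 animal. The R1A allele is named by the labels without further description, and the series concerns a noncoding region that regulates Prrx1, a homeobox gene of mesenchymal cells. The column names of the deposited table call the controls wt and the others hom, read here as wild type and homozygous. Nuclei were stained for PCM1, a protein that gathers around the nuclei of cardiomyocytes, and the gate was set to leave out debris, clumps and nuclei of other cells. Prrx1 itself had 415, 335 and 282 normalized counts in control replicates 1, 2 and 3 and 201, 194 and 183 in the Prrx1(R1A)-/- replicates, a log2 fold change of -0.82 ± 0.25 (limma SE, adjusted p = 0.270). Markers of cardiomyocytes were present in every library, and so were markers of fibroblasts, immune cells and endothelium.

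Each ribosome is built from ribosomal RNA and a full set of these proteins, and the protein genes are among the most strongly transcribed genes of most cells. Their mRNAs are short, spliced, long lived and exported to the cytoplasm, where they begin with a pyrimidine tract through which mTOR signalling sets their translation. Nuclear RNA holds transcripts that are being made, spliced or exported; how much cytoplasmic mRNA came along with the sorted nuclei was not measured. Over evolution these mRNAs have been copied back into the mammalian genome many times as processed pseudogenes, so that stretches of a ribosomal protein transcript occur at other places in the genome as well.

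The libraries held 10580961 to 14658584 reads, of which 12.0% to 46.5% were ribosomal RNA. Only 0.0761% to 0.142% of the remaining reads fell on the 86 genes, 6718 to 13939 reads per library. Control replicate 1 stood apart from the other libraries: its correlation with them over 14584 genes was 0.890 to 0.908, against 0.958 between control replicates 2 and 3. For some results below whose direction or call changes without control replicate 1, the value without it is given as well. This was not done for every gene. Of the 86 genes, 74 reached a normalized count of 10 in 3 libraries and were tested, 44 of the large and 30 of the small subunit. The 12 untested genes are Rpl10l, Rpl13, Rpl19, Rpl22l1, Rpl29, Rpl36a, Rpl39, Rpl39l, Rpl6l, Rps13, Rps27 and Rps29. A gene low in 1 group only could pass or miss this filter through its other group, so counts below are of the tested genes, not of the family.

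The transcripts of this family share sequence with other genes, and the following coding stretches show it. Each is the 50-base window of the coding sequence that occurs in the largest number of other annotated genes, read from the GENCODE transcripts of GRCm38, 5′ to 3′, in lower case throughout because the whole window is what is shared. The first 3 are the members with the highest level per kilobase and the next 3 the tested members with the lowest.
Rps15 (coding bases 181 to 230, also in 3 other genes): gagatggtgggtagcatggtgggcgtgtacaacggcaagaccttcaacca
Rpl8 (coding bases 633 to 682, also in 1 other gene): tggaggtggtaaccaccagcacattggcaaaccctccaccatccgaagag
Rpl4 (coding bases 45 to 94, also in 1 other gene): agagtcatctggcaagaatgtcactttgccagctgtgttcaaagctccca
Rps4x (coding bases 90 to 139, also in 5 other genes): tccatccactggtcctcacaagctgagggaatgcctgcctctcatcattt
Rps25 (coding bases 242 to 291, also in 7 other genes): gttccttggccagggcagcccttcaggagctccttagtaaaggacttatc
Rpl5 (coding bases 691 to 740, also in 6 other genes): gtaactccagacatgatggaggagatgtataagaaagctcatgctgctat

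Across the whole transcript, the median member had 52.7% of its 50-base words in at least 1 other annotated gene. For the 78 mitochondrial ribosomal protein genes, which encode the separate ribosome of mitochondria, the median was 2.84%. More than 50% of the words were shared for 46 of the 86 members and for 5 of the 78 mitochondrial genes. How the authors' counting treated reads that match several places is not given in the sources used here, so the counts of these 46 genes are uncertain.

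Levels were compared between genes as normalized counts per kilobase of transcript, averaged over the 6 libraries. Rps15, a protein of the small subunit head that reaches the decoding site, was highest at 1381, followed by Rpl8, a protein beside the peptidyl transferase centre, at 1049 and Rpl4, which lines the exit tunnel for the new peptide, at 798. Rplp1, a stalk protein, followed at 515. The lowest tested members were Rps4x at 9.52, Rps25 at 9.56 and Rpl5 at 9.64 counts per kilobase. The highest and lowest tested members thus lay 145-fold apart, although their proteins are held in the ribosome in fixed proportion, and 26 of the 74 tested genes lay within 2-fold of the tested median of 52.1.

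A small set of genes carried much of the signal. Rpl4, Rpl8, Rps15, Rpl22 and Rps3 together held 42.7% of the 56328 reads on the family, with 13.8% on Rpl4 alone, whereas 28 members had fewer than 100 reads over all 6 libraries together. The median level was 28.5 counts per kilobase in the large subunit and 50.8 in the small subunit. The order of the levels was similar in all libraries: over the 74 tested genes the correlation between any 2 libraries was 0.874 to 0.962. These correlations are across genes of the same libraries and describe the libraries only.

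Members with more than 50% of their words shared had lower median levels. The median level was 63.1 counts per kilobase for the 15 members with under 25% of their 50-base words shared and 97.9 for the 25 members with 25% to 50% shared. It was 32.0 for the 23 members with 50% to 75% shared and 18.9 for the 23 members above 75%. Grouped instead by the number of genes that share a 100-base word, the median was 134 for the 10 members with none, 90.8 for 24 members with 1 or 2, 33.0 for 21 members with 3 to 5 and 25.2 for 31 members with 6 or more. Spearman's rho between level and shared percentage was -0.35 over the 86 genes for 50-base words and -0.42 for 100-base words, given as a description because the genes share the same 6 libraries. For the 78 mitochondrial ribosomal protein genes it was -0.20 and -0.11. Exceptions went both ways: Rplp1 had 60% of its words shared at 515 counts per kilobase, and Rpl39l had none shared at 0.261. Both measures depend on the transcript chosen. That of Rps15a had 5179 bases, with 6.37% of its 50-base words shared and 43.7 counts per kilobase.

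**Figure D1:**
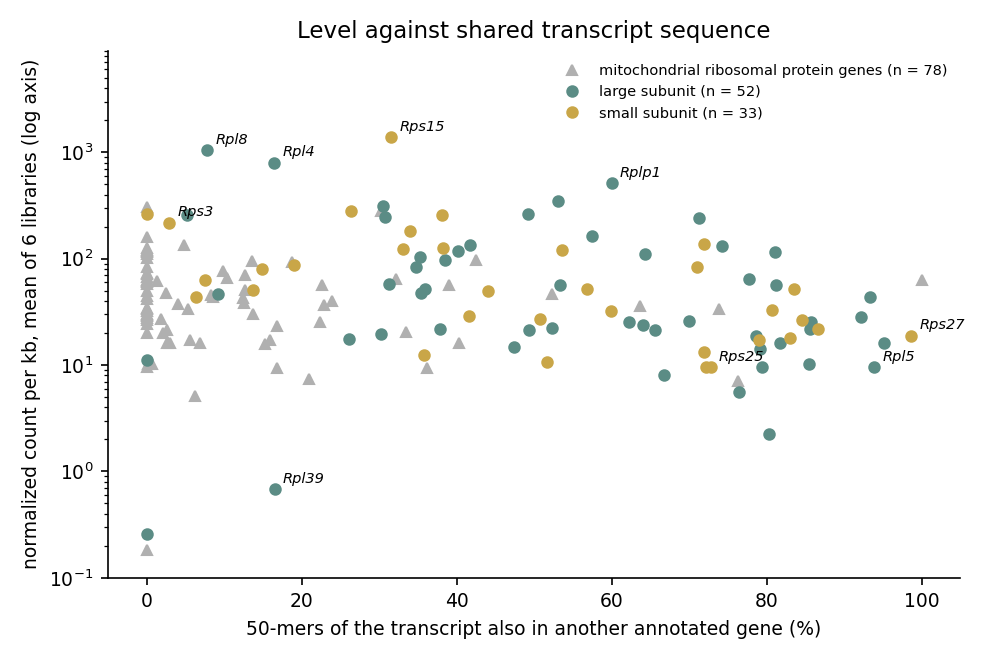
Level of each gene in normalized counts per kilobase of transcript (mean of 6 libraries, log axis) against the percentage of its 50-base words that also occur in another annotated gene. Circles are ribosomal protein genes by subunit, triangles the 78 mitochondrial ribosomal protein genes; the cytoplasmic genes spread over the whole x axis and those above 75% have a median of 18.9, while Rpl10l, at 0 in every library, is not drawn.

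Compared with the controls, the Prrx1(R1A)-/- nuclei held somewhat fewer ribosomal protein reads. The normalized counts of the 86 genes summed to 10171, 9281 and 10336 in control replicates 1, 2 and 3, and to 9178, 8089 and 6790 in Prrx1(R1A)-/- replicates 1, 2 and 3. The groups did not overlap, but the highest Prrx1(R1A)-/- library was close to the lowest control. The mean was 9929 ± 567 (SD, n = 3) in controls and 8019 ± 1196 in Prrx1(R1A)-/- animals, 19.2% lower. In bulk nuclei, fewer nuclei of a kind that is rich in these transcripts and less RNA per nucleus cannot be told apart. On the log2 scale the ratio of the sums was -0.31, and it ranged from -0.42 without Prrx1(R1A)-/- replicate 1 to -0.20 without Prrx1(R1A)-/- replicate 3. Without control replicate 1 it was -0.29.

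Both subunits had lower mean sums. The large subunit genes summed to 6183, 5877 and 6610 in the controls, against 5707, 5131 and 4366 in the Prrx1(R1A)-/- libraries, 18.6% lower on average. The small subunit genes summed to 3987, 3404 and 3726 in the controls, against 3471, 2959 and 2424 in the Prrx1(R1A)-/- libraries, 20.4% lower. Prrx1(R1A)-/- replicate 1 lay above control replicate 2 for the small subunit, so these groups overlapped. The ratio of large to small was 1.55, 1.73 and 1.77 in the controls, against 1.64, 1.73 and 1.80 in the Prrx1(R1A)-/- libraries, or 1.68 ± 0.12 against 1.73 ± 0.08 (SD, n = 3), a difference smaller than the spread between animals. The control mean of this ratio was 1.75 without control replicate 1, above the Prrx1(R1A)-/- mean. Without the 5 genes with most reads the sum was 21.0% lower, and it was 19.5% lower over the 46 members with more than 50% of their words shared and 19.2% lower over the others. The mitochondrial ribosomal protein genes summed to 5974 ± 413 in controls and 5320 ± 203 in Prrx1(R1A)-/- animals, 11% lower.

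**Figure D2:**
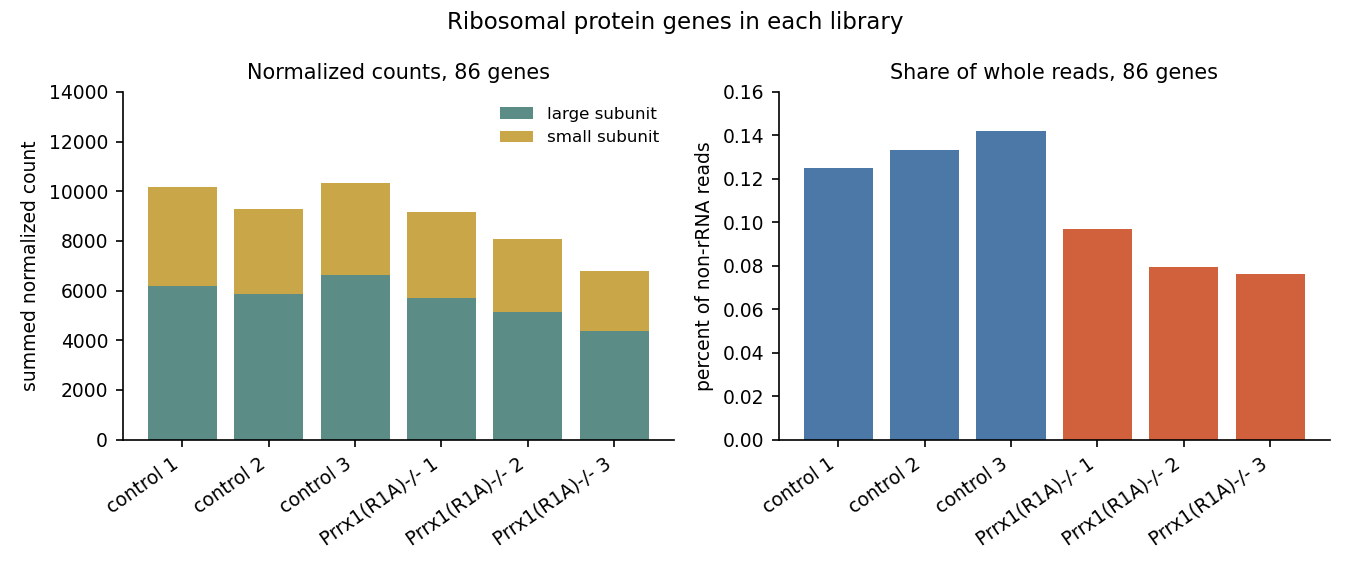
Summed normalized count of the 86 ribosomal protein genes in each library, stacked by subunit (left, bars from 0), and their share of the reads that are not ribosomal RNA in percent (right). The 3 controls sum to 9281 or more and the 3 Prrx1(R1A)-/- libraries to 9178 or less, and the shares are 0.125 to 0.142 against 0.0761 to 0.0970.

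The size of the difference depends on the scaling. As a share of all reads other than ribosomal RNA, the 86 genes took 0.125%, 0.133% and 0.142% in the controls, against 0.0970%, 0.0792% and 0.0761% in the Prrx1(R1A)-/- libraries, so that the mean share was 36.9% lower. On that scale the median of all tested genes also moved by -0.35 on the log2 scale, and the median of the members lay -0.26 from it. Scaling by 1 factor per library shifts nearly all genes alike. The same distance with the deposited normalization was therefore fixed in advance and says nothing about the members. Ribosomal RNA itself took 46.5%, 12.0% and 17.9% of the control reads and 26.7%, 28.9% and 39.8% of the Prrx1(R1A)-/- reads.

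Summed fibroblast and cardiomyocyte markers differed without overlap between the groups, whereas the immune, endothelial, smooth muscle and blood sums overlapped. All 12 fibroblast markers measured had a log2 fold change below 0, with a median of -0.70, and 9 of them had an unadjusted p under 0.05, against 5.25% of all genes in that direction. The summed fibroblast marker count was 49842 to 82639 in the controls and 35671 to 40010 in the Prrx1(R1A)-/- libraries. All 12 immune markers were below 0 as well, with a median of -0.73, and summed to 7580 to 18428 against 6916 to 9887. The 12 cardiomyocyte markers had a median of 0.89, 11 of them above 0, and summed to 303115 to 584761 against 810660 to 1509486. No marker of the fibroblast, immune, cardiomyocyte, endothelial or smooth muscle list was at 0 in all libraries, and of the 5 blood markers measured Hba-a1 was. The 10 endothelial markers summed to 24111 to 26350 against 20421 to 25889, the 8 smooth muscle and pericyte markers to 2288 to 4424 against 2873 to 3757, and the blood markers to 95.6 to 228 against 140.1 to 396. Among the other two controls, without control replicate 1, the highest sum was 56701 for the fibroblast markers, 13390.0 for the immune markers and 2904 for the smooth muscle and pericyte markers, and the lowest was 445068 for the cardiomyocyte markers and 145 for the blood markers. The part of these markers in the ribosomal protein values was not tested.

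Gene by gene, no ribosomal protein gene passed the test after correction for all genes tested. With limma none of the 74 tested members had a Benjamini-Hochberg adjusted p under 0.05, the smallest adjusted p was 0.285, and in all 0.0137% of the 14584 tested genes were called. edgeR, which called no gene at all, and DESeq2, which called 1.67% of all genes, also called no member. Each placed 4 members among the lower genes at an unadjusted p under 0.05, against 5.64% and 6.16% of all genes. At an unadjusted p under 0.05, 5 members were lower in the Prrx1(R1A)-/- nuclei (Rpl18, Rplp0, Rps3, Rps9 and Rpl32) and none was higher, whereas 5.25% of all tested genes were lower and 6.67% higher at that level. The share of members that were lower, 5 of 74, is near that background. The groups did not overlap for 12 tested members, all lower, against 8.36% lower and 8.89% higher over all genes. Of these, 2 (Rps27a and Rps23) were under 10 in every Prrx1(R1A)-/- library and passed the filter through the controls alone, which leaves 10. Among the untested members the groups did not overlap for 2 lower (Rpl22l1 and Rpl36a) and 1 higher (Rpl6l).

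Most tested members lay on the same side of 0, however. The log2 fold change was below 0 for 53 of the 74 tested members, against 50.3% of all genes. The median was -0.27 over the members, -0.22 in the large and -0.29 in the small subunit, and -0.00 over all tested genes, with a median standard error of 0.43 for a single member. With no filter on low counts 61 of 85 members were below 0. Among the 24 members with a mean normalized count of at least 100, 22 were below 0, with a median of -0.33, against 46.6% of the 8434 genes as abundant as that. Of the 20 members with a mean under 20, 9 were below 0, and their median standard error was 0.70. Without control replicate 1, 56 of 72 members were below 0, with a median of -0.33. With reads scaled to the total without ribosomal RNA, 67 of 74 members and 75% of all genes were below 0, and with median or quantile scaling 50 of 74 members were. The median ran from -0.41 without Prrx1(R1A)-/- replicate 1 to -0.21 without Prrx1(R1A)-/- replicate 3.

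The count of members at an unadjusted p under 0.05 changed when single libraries were left out. It was 9 lower and 1 higher of 72 without control replicate 1, while 11.2% of all genes were lower at that level. Without Prrx1(R1A)-/- replicate 1 it was 7 lower of 70, against 4.82% of all genes. It was 4 lower of 69 without control replicate 2 (2.92% of all genes) and 2 lower without control replicate 3 (3.58%). Leaving out Prrx1(R1A)-/- replicate 2 gave 3 lower (3.49%), and leaving out Prrx1(R1A)-/- replicate 3 gave 2 lower (4.03%). Without control replicate 1 the adjusted p of Rps9 was 0.0257, its log2 fold change -1.64 ± 0.40, while 9.16% of all genes were then called. With weights that count each library by its own scatter, in which control replicate 1 got 0.246 and control replicate 3 got 2.64, 5 members were called, namely Rps9 (adjusted p = 0.0134), Rpl18 (0.0241), Rps3 (0.0302), Rplp0 (0.0435) and Rpl32 (0.0479). With the same weights 10.4% of all genes were called.

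**Figure D3:**
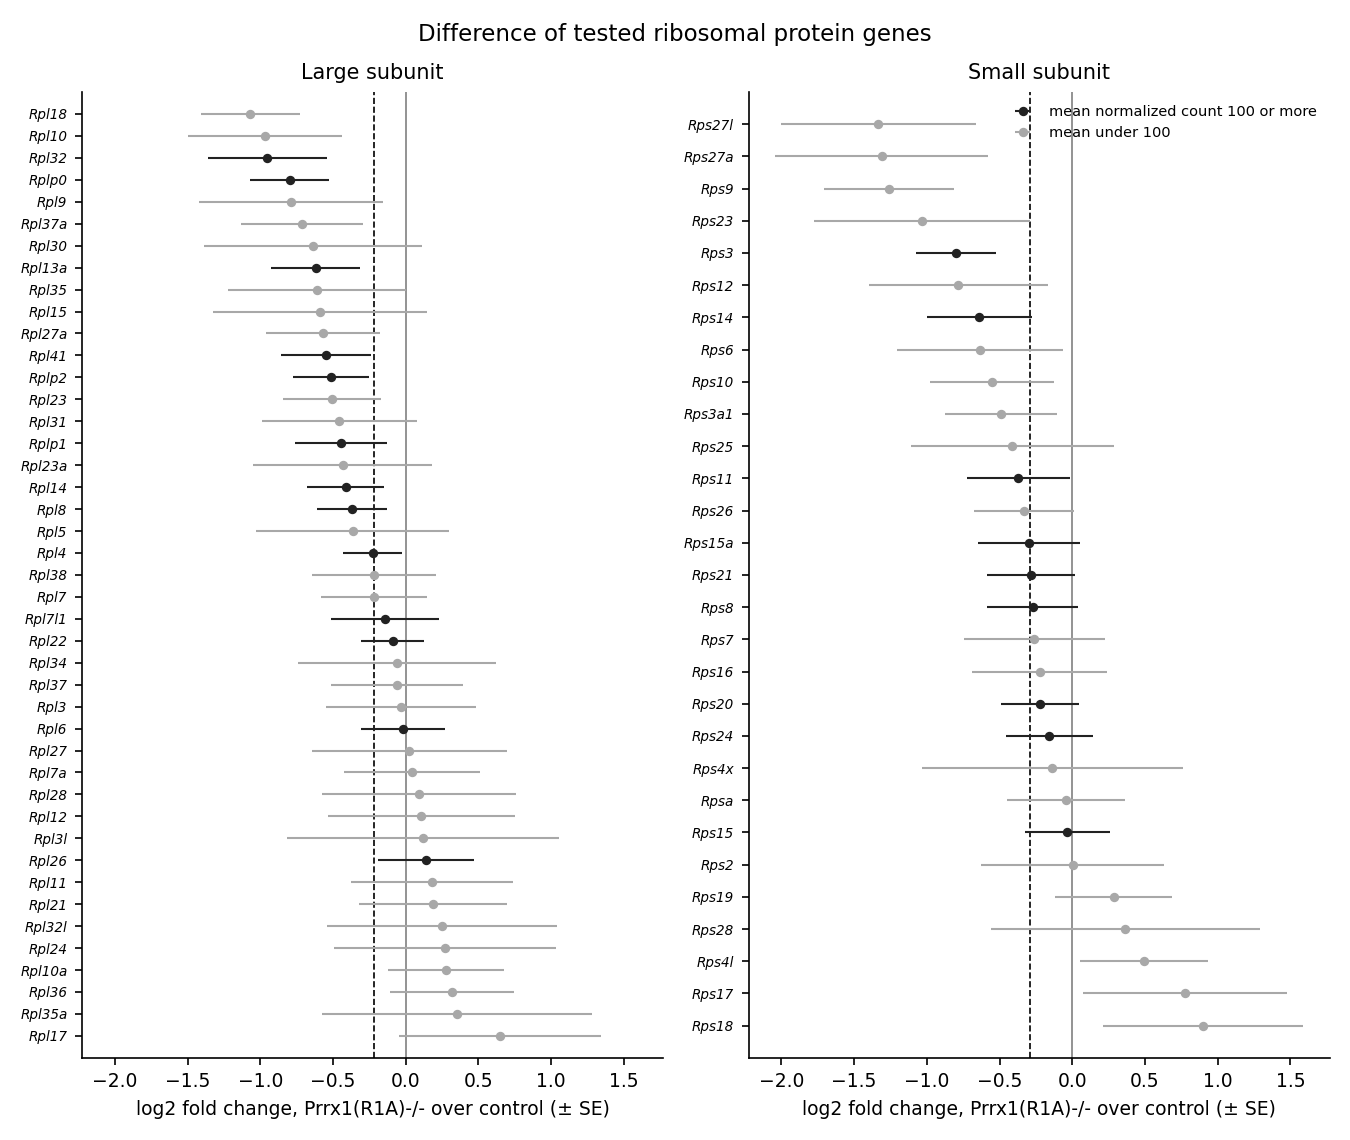
Log2 fold change of tested genes, Prrx1(R1A)-/- over control, with standard errors, for large subunit genes (left) and small subunit genes (right), black where the mean normalized count is 100 or more. The dashed lines mark the medians over all tested genes of the subunit, -0.22 and -0.29 and the standard errors are widest for the grey genes of low count.

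The stalk of the large subunit, which recruits the GTPases that drive each step of translation, is built from Rplp0, Rplp1 and Rplp2 on a base that Rpl12 shares. Rplp0 (GRCm38 chromosome 5, 115559467 to 115563729, plus strand) had 254, 194 and 254 normalized counts in the controls, against 152, 121 and 128 in the Prrx1(R1A)-/- libraries. Every Prrx1(R1A)-/- value lay below every control, and the log2 fold change was -0.80 ± 0.27 (95% interval -1.39 to -0.20, limma adjusted p = 0.310). Rplp2 had 286, 241 and 314 counts against 194, 233 and 163, again without overlap, at -0.52 ± 0.26. For Rplp1 the values were 347, 210 and 328 against 281, 229 and 147, and the groups overlapped (-0.44 ± 0.32). Rpl12 was low and variable, with 8.81, 47.9 and 26.7 counts against 20.6, 22.8 and 31.3, so that the control mean was the higher. The difference on the log scale was 0.11 ± 0.64, and it turned to -0.53 ± 0.55 without control replicate 1 and was below 0 in 6 of 17 alternatives. Rpl12 overlaps Lrsam1 on the opposite strand, and the libraries did not keep strand.

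Among the proteins around the mRNA channel, Rps3 sits at the entry of the small subunit. Rps3 (chromosome 7, 99477896 to 99483709, minus strand) had 481, 515 and 569 counts in the controls, against 400, 323 and 206 in the Prrx1(R1A)-/- libraries. The 3 Prrx1(R1A)-/- libraries were spread widely yet all lay below the controls (-0.80 ± 0.27, 95% interval -1.40 to -0.20, limma adjusted p = 0.310). Rps15, the most abundant member per kilobase (chromosome 10, 80292431 to 80294114, plus strand), had 1237, 553 and 673 counts against 834, 785 and 657; it was highest in control replicate 1 and its log2 fold change was -0.03 ± 0.29. Without that library the direction turned, to 0.31 ± 0.19 (limma adjusted p = 0.340). Of the 11 tested genes of the mRNA channel and head, 7 were below 0 and the median was -0.22.

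Rpl18 had the smallest p-value of the family and Rps9 the fourth smallest. They are named here after their values were seen, because their mean counts of 90.1 and 92.1 fall under the limit of 100 used to choose genes. Rpl18, a large subunit protein affected in some families with Diamond-Blackfan anaemia, lies on chromosome 7 (45715467 to 45720835, plus strand) and had 107, 116 and 143 counts in the controls, against 73.8, 49.2 and 51.5 in the Prrx1(R1A)-/- libraries. The groups were well apart (-1.07 ± 0.34, limma adjusted p = 0.285), but the gene shares exonic bases with Sphk2 on the other strand. Rps9, which takes part in decoding and lies on chromosome 7 (3703954 to 3706897, plus strand), had 71.7, 148 and 171 counts against 81.4, 43.2 and 36.4. Control replicate 1 lay below Prrx1(R1A)-/- replicate 1 here, and the difference was -1.26 ± 0.44 (adjusted p = 0.315).

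Rpl32 and Rpl13a were also among the abundant members with the smallest p-values. Rpl32, which also overlaps Cand2 on the opposite strand, had 162, 205 and 255 counts against 199.8, 93.6 and 61.7, so that Prrx1(R1A)-/- replicate 1 lay within the controls (-0.95 ± 0.41). Rpl13a, a protein that in human cells can leave the ribosome to silence inflammatory mRNAs, had 234, 154 and 229 counts against 162, 134 and 104 and differed by -0.62 ± 0.30 (adjusted p = 0.445). Rpl26, which lies at the tunnel exit and in human cells promotes translation of p53, had 174, 89.9 and 104 counts against 141, 133 and 115, at 0.14 ± 0.33, which turned to -0.21 when reads were scaled to the total without ribosomal RNA.

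**Figure D4:**
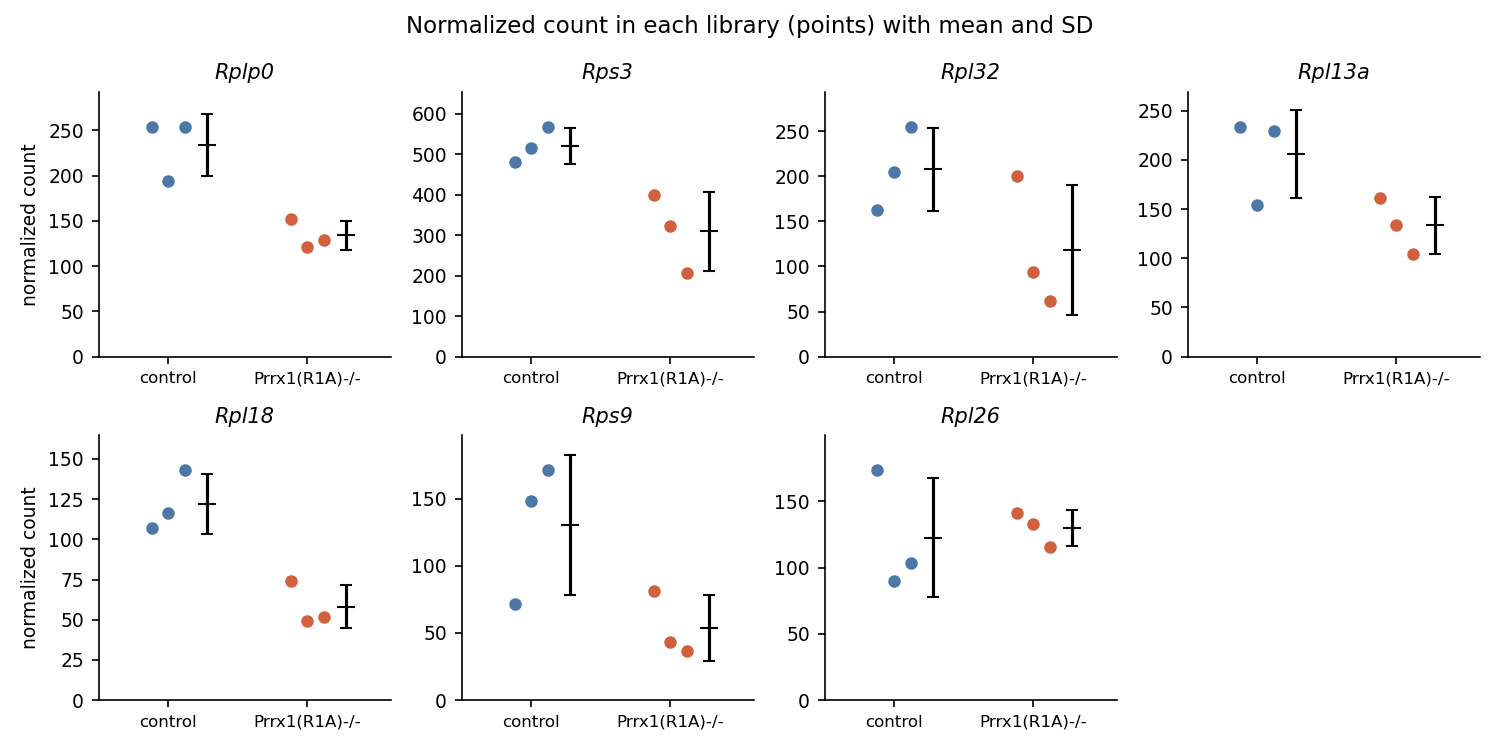
Normalized counts of 7 members in each library (points), with the mean and SD of each group (black). In Rplp0, Rps3 and Rpl18 the 3 Prrx1(R1A)-/- libraries lie below the 3 controls, while in Rpl32, Rpl13a, Rps9 and Rpl26 the groups overlap.

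The exit tunnel, through which the growing chain leaves, is lined by Rpl4 and Rpl17 and opens among Rpl19, Rpl23a, Rpl26, Rpl31, Rpl35 and Rpl39. Rpl4, which had the most reads of the family and lies on chromosome 9 (64173387 to 64178562, plus strand), had 1209, 1425 and 1330 counts in the controls, against 1310, 1070 and 1019 in the Prrx1(R1A)-/- libraries. Its difference of -0.23 ± 0.20 had a 95% interval of -0.67 to 0.22, the narrowest of the most abundant members. Rpl8 had 1065, 849 and 1084 counts against 994, 774 and 591, at -0.37 ± 0.24. Of the 6 tunnel genes tested, 4 were below 0 and the median was -0.33. Rpl39, the small protein at the tunnel exit, had 2 reads in control replicate 1 and none in the other libraries.

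Rpl5 and Rpl11 travel with the 5S ribosomal RNA and, when assembly fails, bind Mdm2 and stabilise p53. Both had few reads, 131 and 133 over all 6 libraries. Rpl5 had 10.1, 31.5 and 26.0 counts against 26.1, 15.6 and 9.10, at -0.36 ± 0.66. Rpl11 had 12.6, 24.0 and 23.0 against 23.9, 25.2 and 17.2, at 0.18 ± 0.56. The 95% intervals, -1.82 to 1.09 and -1.04 to 1.40, leave room for more than a 2-fold difference in either direction.

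Of the 20 ribosomal protein genes listed for Diamond-Blackfan anaemia, a bone marrow failure caused by loss of a ribosomal protein gene copy, 18 were tested. The log2 fold change was below 0 for 11 of them, against 50.3% of all genes, with a median of -0.24. Rpl18 was the 1 gene with an unadjusted p under 0.05 in the limma fit, where 5.25% of all genes were lower. Fusions of a ribosomal protein with ubiquitin or a like domain had low counts. Rps27a had 12.6, 12.7 and 20.8 counts against 5.43, 7.2 and 4.04, at -1.31 ± 0.73. With every Prrx1(R1A)-/- value under 10, it passed the filter through the controls alone, so a lower value was fixed by the filter. Fau, the fusion that the rule does not reach, had 17.5 ± 4.44 counts against 22.1 ± 17.0 (SD, n = 3) and differed by 0.09 ± 0.66.

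Several members are paralogs that can take the place of the common protein in certain tissues. Rpl3l replaces Rpl3 in heart and skeletal muscle. The first 60 coding bases of Rpl3l and Rpl3 are shown with the 13 differing bases in capitals, because these differences let reads of the muscle copy be told from those of Rpl3.
Rpl3l: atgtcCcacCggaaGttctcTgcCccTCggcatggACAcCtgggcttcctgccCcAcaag
Rpl3: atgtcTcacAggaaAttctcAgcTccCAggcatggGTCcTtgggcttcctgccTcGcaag
The coding sequences of both genes were 74.1% identical over their alignment, and no 50-base word of Rpl3l occurred in another gene. Rpl3l had 8.81, 7.49 and 20.8 normalized counts in the controls, against 28.2, 25.2 and 2.02 in the Prrx1(R1A)-/- libraries, and Rpl3 had 21.4, 47.9 and 22.2 against 33.7, 25.2 and 25.3. Per kilobase, Rpl3l therefore made up 28.8%, 13.3% and 47.8% of both genes together in the controls, against 45.2%, 49.6% and 7.29% in the Prrx1(R1A)-/- libraries. The groups overlapped widely in this share, and the fold change of Rpl3l, 0.12 ± 0.93, had the widest standard error of any tested member. For Rpl3, 85.6% of the 50-base words are shared with other genes and the assignment of those reads is not known, so the share of Rpl3l is uncertain.

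Rps27l, a copy of Rps27 that p53 can induce, differs from it at 18 of the first 60 coding bases, shown in capitals, where Rps27 is almost wholly shared with other genes and Rps27l is not.
Rps27l: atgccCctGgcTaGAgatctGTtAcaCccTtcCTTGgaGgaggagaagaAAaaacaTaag
Rps27: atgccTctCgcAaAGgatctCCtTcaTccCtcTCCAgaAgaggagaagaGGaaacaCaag
Rps27l had 22.6, 54.7 and 43.0 counts in the controls, against 36.9, 10.8 and 7.07 in the Prrx1(R1A)-/- libraries, with replicate 1 among the controls, and its log2 fold change of -1.33 ± 0.67 was the lowest of all tested members (limma adjusted p = 0.451). Rps27 had 5.03, 8.24 and 2.97 counts against 3.26, 15.6 and 4.04 and was not tested.

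The other paralogs had differences within their errors or few reads. Rpl7l1, a relative of Rpl7 that works in ribosome assembly, had 95.6, 134 and 139 counts against 90.1, 181 and 80.9 (-0.14 ± 0.37), and Rpl7 had 75.5, 54.7 and 83.1 against 53.2, 61.2 and 66.7 (-0.22 ± 0.36). Rpl22, an RNA-binding protein of the large subunit, had 537, 490 and 607 counts against 456, 532 and 548 (-0.09 ± 0.22). Its paralog Rpl22l1, which Rpl22 is known to repress, had 8.81, 21.0 and 22.2 counts against 6.51, 3.60 and 8.09. All 3 Prrx1(R1A)-/- values of Rpl22l1 lay below the controls, but the gene missed the filter and was not tested. Before scaling it had 7 reads in control replicate 1 and 8 in Prrx1(R1A)-/- replicate 3, so this order rests on the scaling. Rpl22l1 also overlaps Gm33051 on the opposite strand. Rpl36a, named here after its values were seen, had 5.03, 10.5 and 8.90 counts against 2.17, 1.20 and 2.02. Its Prrx1(R1A)-/- values also all lay below the controls, and it was not tested either. Rpl10, a late-joining protein of the large subunit, had 30.2, 36.0 and 25.2 counts against 15.2, 18.0 and 12.1, without overlap, at -0.97 ± 0.53. Its testis paralog Rpl10l had 0 reads in all 6 libraries, which allows up to 3 reads per library, or 2.22 to 3.77 normalized counts. Rpl39l had 1 read in control replicate 1. Rps4x had 2.52, 18.7 and 10.4 counts against 13.0, 6.0 and 5.05, and the pseudogene Rps4l, a copy of it, had 51.6, 54.7 and 72.7 against 84.7, 144 and 47.5 (0.49 ± 0.44). Per kilobase, Rps4l made up 75.1% to 96.1% of the level of both in each library. The comparison of both loci depends on how shared reads were assigned.

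The promoters of these genes hold short motifs in common. In windows from 250 bases before to 50 bases after each RefSeq start (76 windows of 64 member genes, GRCm38.p6), searched on both strands, the pyrimidine stretch CTCTTTC occurred in 27.6% of member windows and in 8.16% of all 32851 windows. The Ets-type motif CCGGAAG occurred in 35.5% against 8.86%, the YY1-type motif AAGATGGC in 10.5% against 2.75%, and the TATA motif TATAAA in 10.5% against 13.6%. Motifs may overlap and a match is not a bound site. The windows below hold the motif in capitals and are shown because they contain a RefSeq start or lie just before it in a gene described above. A gene can have several RefSeq starts, and each line refers to the start of its own window. The window of Rpl18 lies inside the gene coordinates given above, not at their first base.
Rpl18, chr7:45718031-45718090, plus strand, CTCTTTC, 40 bases before to 20 after the start: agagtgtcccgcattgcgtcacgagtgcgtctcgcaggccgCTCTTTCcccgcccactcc
Rpl5, chr5:107900483-107900542, plus strand, CTCTTTC, 45 bases before to 15 after the start: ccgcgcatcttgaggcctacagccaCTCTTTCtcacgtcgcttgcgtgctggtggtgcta
Rpl11, chr4:136053374-136053433, minus strand, CCGGAAG, 40 bases before to 20 after the start: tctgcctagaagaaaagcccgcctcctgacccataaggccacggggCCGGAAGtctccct
Rps27, chr3:90213688-90213747, minus strand, AAGATGGC, 99 to 40 bases before the start: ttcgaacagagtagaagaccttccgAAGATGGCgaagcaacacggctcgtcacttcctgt
Rpl18 and Rpl5 carry the same stretch, and lay at -1.07 ± 0.34 and -0.36 ± 0.66 in the comparison.

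Many members carry a second product: 30 of the 86 genes hold an annotated small nucleolar RNA, or a related small RNA, on the same strand within their bounds. Small nucleolar RNAs guide the modification of ribosomal RNA. Whether each lies in an intron was not checked. The median log2 fold change was -0.27 over the 27 such members that were tested and -0.26 over the other 47. Spearman's rho between the log2 fold change and the percentage of shared words was 0.04 over the 74 tested genes, given as a description. For the 15 members whose exons overlap those of an opposite-strand gene the reads cannot be divided between strands. Without them, the median was -0.09 in the large and -0.27 in the small subunit.

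Genes that act around the ribosome were read from lists drawn up for this comparison, and with limma none of the 119 tested genes on them that are no members had an adjusted p under 0.05. Without control replicate 1, when 9.16% of all genes were called, 15 of the 119 were. These 15 included Eef1a1, Eif1, Rrp12, Ddx21, Rptor, Rmrp and Gas5, which are described below. With library quality weights 17 of the 119 were called (10.4% of all genes). Of the 18 measured genes of translation whose mRNAs, like those of the ribosomal proteins, begin with a pyrimidine tract, 11 were below 0 with a median of -0.29, 3 were lower and 1 higher at an unadjusted p under 0.05, against 5.25% and 6.67% of all genes. Eef1a1, the elongation factor that brings aminoacyl-tRNA, had 930 ± 102 counts in controls and 567 ± 119 in Prrx1(R1A)-/- nuclei (SD, n = 3), a log2 fold change of -0.73 ± 0.23 (limma adjusted p = 0.279). Naca, of the nascent chain complex and with a muscle isoform, had 4210 ± 1346 against 7451 ± 1290 and differed by 0.87 ± 0.27 (adjusted p = 0.282). Of 26 initiation factors 15 were below 0 and the median was -0.01. Eif1, which guards start codon choice, was at -1.14 ± 0.31 (284 ± 42.9 against 133 ± 44.2 counts), and Eif6, which keeps the subunits apart during large subunit maturation, at -0.89 ± 0.31 (195 ± 42.3 against 105 ± 22.9).

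Among 34 assembly factors of the ribosome 15 were below 0 with a median of 0.07, and 4 were higher and none lower at an unadjusted p under 0.05, against 6.67% and 5.25% of all genes. Rrp12, which helps export the subunits, had 139 ± 18.4 counts in controls and 325 ± 79.5 in Prrx1(R1A)-/- nuclei (1.19 ± 0.28, adjusted p = 0.156). Ddx21, a nucleolar helicase, had 403 ± 117 against 749 ± 205 (0.89 ± 0.29). For RNA polymerase I and its factors the median over 15 genes was 0.22, with Cd3eap, a polymerase I subunit, at 1.09 ± 0.35 and Polr1d, shared with polymerase III, at -0.91 ± 0.36. The 17 regulators of ribosomal protein genes and their translation had a median of -0.10, with Rptor, the mTORC1 scaffold, at 0.63 ± 0.22 and the S6 kinase Rps6kb2 at 0.51 ± 0.24. Among 9 tested noncoding hosts of small nucleolar RNAs and related RNAs the median was -0.13. Rmrp, the RNA of the enzyme that cuts the ribosomal RNA precursor, had 345, 47.9 and 67.5 counts in the controls, against 221, 455 and 542 in the Prrx1(R1A)-/- libraries (1.86 ± 0.61). Its log2 fold change was 2.72 ± 0.36 without control replicate 1, with a limma adjusted p of 0.00401. Ribosomal RNA took 12.0% and 17.9% of the reads in the remaining controls, against 26.7% to 39.8% in the Prrx1(R1A)-/- libraries. The part of ribosomal RNA content in the Rmrp difference was not tested. Gas5, a host whose RNA begins with a pyrimidine tract, was at -0.45 ± 0.34.

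The authors' deposited table lists 1900 genes, while 26332 genes have normalized counts. Of the 1900, 904 were lower in Prrx1(R1A)-/- nuclei. It includes 4 of the 86 members of the family, all lower. In the authors' deposited table Rps9 has a log2 fold change of -0.96 (adjusted p = 0.147) and Rpl18 one of -0.86 (adjusted p = 0.152). The authors' deposited table gives -0.69 (adjusted p = 0.197) for Rplp0 and -0.66 (adjusted p = 0.220) for Rps3. These are 4 of the 5 members with an unadjusted p under 0.05 in the limma fit, made from the same libraries.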

How the data were processed

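Each of the 6 libraries holds nuclear RNA of 1 animal. Per the labels' protocols, the Ovation RNA-seq System V2, which keeps no strand, and a HiSeq4000 were used. STAR, DESeq2 and the build mm10 are named in the submitters' processing notes; not given in the sources used here are their versions, the read counter and how it handled reads with several matches. The authors deposited 1 normalized count (a signal value) per gene and library. Values divided by a constant step per library were whole reads within 0.01 reads, Prrx1 in control replicate 3 excepted. The deposited comparison table of the authors gives a log2 fold change, its score, p-value and −log10 adjusted p-value per gene. Of 27179 entries, 847 had no value and were left out.

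The main test was limma-trend (limma 3.58.1, R 4.3.3) on log2(normalized count + 1) with a term for genotype, two-sided, on genes with at least 10 in at least 3 libraries, and Benjamini-Hochberg adjustment over 14584 genes at 0.05. Errors of fold changes are its standard errors. With 1 library per animal, p-values measure the spread between animals together with that of library making. Reads were recovered for edgeR 4.0.16 and DESeq2 1.42.0. A zero allows up to 3 reads, a limit for counting error alone, since PCR copies of a molecule are not separate molecules. Shared 50- and 100-base words were counted in GENCODE vM21 transcripts (GRCm38, the same build as mm10), using for each gene its longest transcript matched to a RefSeq mRNA (83 of 86 members, otherwise its longest transcript). Motifs were searched in RefSeq promoter windows. Figures used Python 3.11.15 and matplotlib 3.10.9.

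Members, lists and tests were chosen with earlier results of these data known. Genes were named if called, if among the 5 smallest p-values per direction with a mean of at least 100, if on the stalk, 5S, fusion or paralog lists, or if among the 3 highest or 3 lowest per kilobase, and from other lists the 2 smallest p-values. Sums and medians over members were given no test. Some members are counted in the totals but not reported singly here.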

Additional observations from a re-analysis of the deposited data

How the results depend on the processing

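Scaling by TMM, by the median or by quantiles, edgeR, DESeq2, pseudocounts of 0.5 and 5, and a filter of 50 or none left the number of called members at 0 and both subunit medians below 0. A filter at 50 left 39 members tested and gave a median of -0.37 in the large and -0.29 in the small subunit. Scaling to the total without ribosomal RNA gave 20 members at an unadjusted p under 0.05, all lower, against 17.5% of all genes lower, subunit medians of -0.57 (large) and -0.64 (small) and a log2 ratio of the sums of -0.67; it moved the median of all genes by -0.35. Library quality weights gave 5 called members and 14 at an unadjusted p under 0.05, with 10.4% of all genes called and 13.0% lower at that level; the cause was not tested. Without members that share exons with an opposite strand, an alternative chosen after seeing the data, 3 members had an unadjusted p under 0.05, since fewer members were counted. Leaving out 1 library at a time gave 0 to 1 called members, 2 to 10 at an unadjusted p under 0.05, large subunit medians of -0.34 to -0.16, small subunit medians of -0.48 to -0.22 and log2 ratios of the sums of -0.42 to -0.20.

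Same-numbered libraries did not deviate together (correlations of -0.11, -0.02 and -0.09), and the main test did not treat the replicate numbers as pairs. Such correlations cannot show whether same-numbered animals or libraries were handled together. With the replicate number as a block, 0 members were called and 4 had an unadjusted p under 0.05. For the 28 members with fewer than 100 reads over all libraries, depth limits what could be seen.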
